A study of Saccharomyces cerevisiae with 6 samples.

Results

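The genes examined here encode the subunits of the 26S proteasome of budding yeast (Saccharomyces cerevisiae), together with the proteasome-bound deubiquitinase Ubp6 and Rpn4, the transcription activator of the subunit genes. The 34 members were taken from a list of names: a probe set belonged to a member if its platform annotation gave that gene alone, whatever its signal. Each gene is represented by its probe set with the highest mean signal. All 34 were found, with 39 probe sets among the 9275 that were not controls, and they are 34 of the 5656 genes measured. RNA came from strain Y117, labelled wild type, and strain Y118, which carries a lysine-to-arginine substitution (K123R) in histone H2B at the residue that receives monoubiquitin. Both strains entered early stationary phase, were moved into fresh rich medium (YPD) at an optical density of 0.3, and were shaken at 30 degrees for 7 hours until the density was 2. There were 3 cultures of each strain, and each culture was measured on its own Affymetrix S98 array, on which short oligonucleotides are read in 1 colour. Each genotype is 1 strain, so anything else that differs between the strains cannot be told apart from the substitution, and array signals for H2B do not show a point mutation.

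The proteasome degrades proteins that carry ubiquitin chains. A barrel-shaped core particle, made of alpha rings that gate the entrance and beta rings that hold the proteolytic sites, is capped by a regulatory particle, whose base unfolds substrates with a ring of ATPases and whose lid removes the ubiquitin chain. In yeast the subunit genes share the activator Rpn4, which is itself a short-lived substrate of the proteasome, so that a shortage of proteasome activity lets Rpn4 accumulate and raises transcription of the subunits. Proteasomes are also reorganised when yeast cells enter stationary phase, stored in granules in the cytoplasm, and returned to the nucleus when growth resumes.

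Array medians of signal were close, between 130.5 and 139, and log2 signals of the wild-type arrays correlated at 0.992 or more with each other. The array of H2B K123R replicate 1 stood apart. It correlated at 0.958 and 0.969 with the other arrays of its group, the control probes at the 3' end of actin mRNA read 1.98 times those at its 5' end, against 1.40 to 1.59 times on the other 5 arrays, and its 99th percentile of signal was 8652 against 10221 or more elsewhere. Differences and medians below that this array moved by over 1.5 times are therefore also given without it; the part of RNA quality in the results was not tested.

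Proteasome genes mostly read higher in H2B K123R than in wild type, by modest amounts, and the groups of some genes overlapped. RPT1, RPN2, RPN9, PRE4 and UBP6 rose, which is 5 of the 34 members, and no member fell, by limma's moderated test with Benjamini-Hochberg adjustment over all 9275 probe sets and a threshold of 0.05. Of all 5656 genes, 6.06% were called higher and 2.92% lower in the same fit. At an unadjusted p under 0.05 the members numbered 23 higher and 0 lower, where 20.7% of all genes were higher and 10.1% lower. RPN2, RPN9 and PRE4 did not pass when limma was run without a variance trend (adjusted p = 0.0659, 0.0612 and 0.0579). The difference, taken as H2B K123R minus wild type on the log2(signal + 16) scale, was positive for 34 of 34 members and lay between 0.07 and 0.65, with a median of 0.31 against 0.08 over all genes. Of all genes, 60.4% had a positive difference and 21.7% had one at least as large as the members' median. The 3 H2B K123R arrays lay above all 3 wild-type arrays for 24 of 34 members, where 25.5% of all genes did so.

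Without H2B K123R replicate 1 the members' median difference was 0.21, against 0.03 over all genes, and 33 of 34 differences stayed positive. In that fit 7 members were called higher and 0 lower: the same 5 together with RPT5 and RPN7. Of all genes, 8.26% were called higher and 6.10% lower in it. The number of members called depended on which array was left out. Leaving out H2B K123R replicate 2 gave 7 calls, among them RPT1, RPN9 and UBP6 but not RPN2 or PRE4. Leaving out H2B K123R replicate 3 or any of wild-type replicates 1, 2 and 3 gave 0. Of the fits with 1 array left out, RPN2 and PRE4 thus passed only in that without H2B K123R replicate 1. Calls over all genes, here in either direction, moved likewise: 7.23% of genes passed without H2B K123R replicate 2, 0.866% without its replicate 3, and 0.743%, 0.477% and 0.265% without wild-type replicates 1, 2 and 3. Those called higher numbered 303, 31, 29, 21 and 14 of 5656 genes, in the same order. At an unadjusted p under 0.05, 19 members were higher and 0 lower by limma without H2B K123R replicate 3, where 17.8% of all genes were higher. Without wild-type replicates 1, 2 and 3 the members higher numbered 17, 13 and 13, with 0 lower, where 16.5%, 13.7% and 13.6% of all genes were higher. Every count here comes from 3 or fewer arrays a group, which limits the precision.

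**Figure D1:**
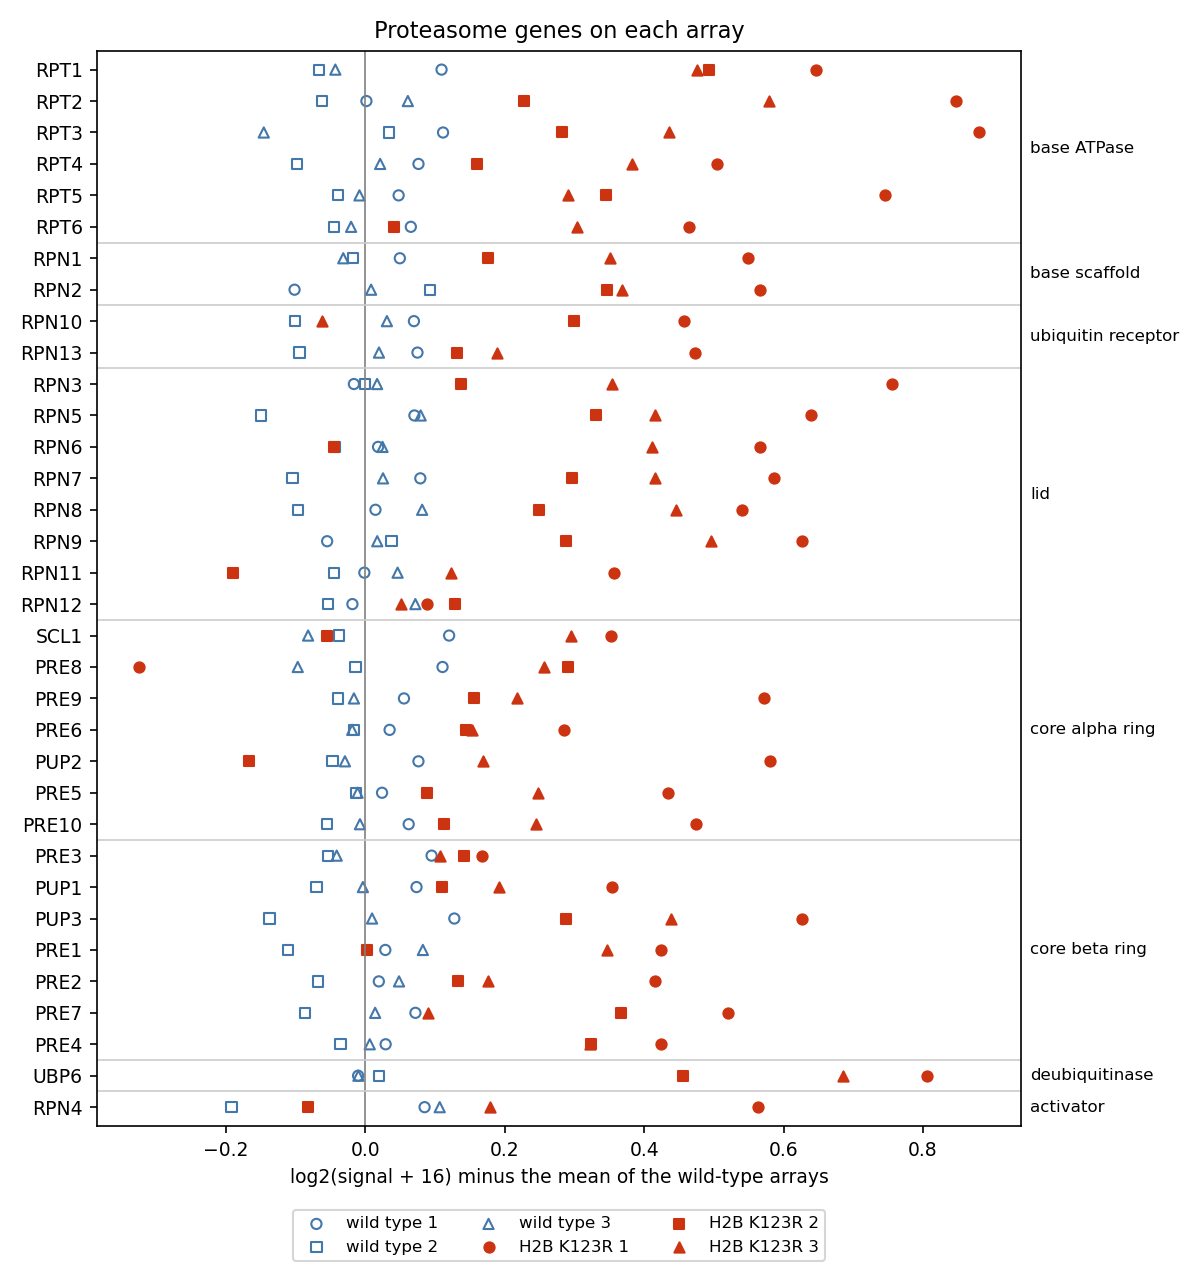
Signal of each proteasome gene on each of the 6 arrays, as log2(signal + 16) minus the mean of the 3 wild-type arrays (x axis), with genes grouped by their place in the complex (y axis, 1 row a gene). Open blue symbols are wild type and filled red symbols H2B K123R, with the symbol's shape giving the replicate; the H2B K123R symbols lie to the right of the wild-type symbols for 24 of 34 genes, and replicate 1 is the rightmost for 32.

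The base ATPases, which form the hexameric ring that unfolds substrates and threads them into the core, had a median difference of 0.50 over 6 genes, and 0.34 without H2B K123R replicate 1. RPT1 rose 1.45-fold from 1945 ± 132 to 2832 ± 189 (mean signal ± SD over 3 arrays a group, as for all such pairs; folds are computed on log2(signal + 16), so those of faint genes come out too small; limma adjusted p = 0.0209). Its signals were 2096, 1854 and 1885 on the wild-type arrays and 3049.6, 2739 and 2706 on the H2B K123R arrays, in the order of replicates 1, 2 and 3, which is kept throughout. No H2B K123R array came near the wild-type range, and the difference was 0.48 without replicate 1 (limma adjusted p = 0.0176). RPT2, whose product takes part in opening the gate of the core, read 441, 421 and 460.0 on the wild-type arrays and 805, 518 and 665 on the H2B K123R arrays, and its difference of 0.55 was the largest of the ring. It did not pass (limma adjusted p = 0.0919), and its H2B K123R arrays spread more widely than those of RPT1. RPT3 read 541, 512 and 450.1 on the wild-type arrays and 933, 611 and 681 on the H2B K123R arrays, with replicate 1 again far above the others of its group.

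RPT4 and RPT5, whose products sit beside each other in the ring, also had separate groups, with H2B K123R higher, where 25.5% of all genes did. RPT4 read 888, 786 and 854 in wild type and 1200.5, 942 and 1102 in H2B K123R, a difference of 0.35 (95% interval 0.09 to 0.61). RPT5 read 920.3, 865 and 885 in wild type and 1503, 1135 and 1092 in H2B K123R on its brightest probe set, a difference of 0.46 that did not pass on all arrays and passed when replicate 1 of H2B K123R was left out (0.32, limma adjusted p = 0.0355). The other probe sets of RPT5 differed in what they showed. A dimmer one read 944, 786 and 834 in wild type and 837, 1109 and 1153 in H2B K123R, so that replicate 1 lay within the wild-type range (limma adjusted p = 0.311, and 0.0459 without replicate 1), and another read 174 on replicate 1 against 362 to 400.2 in wild type and 595 and 439 on the other H2B K123R arrays. The faintest one read under 30 on every array. RPT6 was the one ATPase gene of which the groups overlapped: it read 2582, 2391 and 2432 in wild type and 3411, 2539 and 3050.2 in H2B K123R, and replicate 2 of H2B K123R lay just under the highest wild-type array (difference 0.27, and 0.17 without replicate 1; limma adjusted p = 0.207 on all arrays).

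The 2 large scaffold genes of the base stood above wild type on every H2B K123R array. RPN2, which encodes the scaffold that holds the receptor Rpn13, rose 1.34-fold from 1363 ± 92.8 to 1839 ± 159.7 (limma adjusted p = 0.0457), with signals of 1267, 1453 and 1369 on the wild-type arrays and 2023, 1734 and 1761 on the H2B K123R arrays. Its difference was 0.36 without replicate 1 (limma adjusted p = 0.0379). RPN1, whose product docks Ubp6 and the ubiquitin shuttle proteins, read 1023, 976 and 967 in wild type and 1454, 1118 and 1265 in H2B K123R and did not pass (difference 0.36, limma adjusted p = 0.0992). The differences of the ubiquitin receptor genes were smaller. RPN13 read 2397, 2129.8 and 2306 in wild type and 3164, 2494 and 2596 in H2B K123R, a difference of 0.26, and 0.16 without replicate 1. RPN10 read 2259, 2005 and 2198 in wild type and 2958, 2652 and 2059 in H2B K123R, a difference of 0.23 (95% interval -0.10 to 0.56), and replicate 3 of H2B K123R lay within the wild-type range. That difference was 0.12 without replicate 1, and it turned sign to -0.012 with array weights. Neither receptor gene passed limma's test (0 of 2), with or without replicate 1. At an unadjusted p under 0.05 by limma, 1 of 2 was higher on all arrays and 0 of 2 without replicate 1. Of all genes, 20.7% were higher at that threshold on all arrays.

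In the lid, most genes of the PCI-domain subunits, which build its horseshoe-shaped frame, lay above wild type, while the gene of its enzyme did not. The 8 lid genes had a median difference of 0.41, and 0.30 without H2B K123R replicate 1. RPN9 rose 1.39-fold from 876 ± 29.7 to 1225 ± 145 (limma adjusted p = 0.0460), with signals of 842, 899 and 886 on the wild-type arrays and 1360.2, 1072 and 1241 on the H2B K123R arrays. RPN7 read 1395, 1227 and 1344 on the wild-type arrays and 1989, 1625 and 1766 on the H2B K123R arrays, a difference of 0.43 just short of the threshold (limma adjusted p = 0.0516) and past it without replicate 1 (0.36, limma adjusted p = 0.0450). RPN5 read 555, 474 and 559 in wild type and 832, 668 and 710.0 in H2B K123R, and RPN8, which encodes the inactive partner of the lid's metalloprotease, read 693, 640.2 and 726 in wild type and 1004, 818 and 939 in H2B K123R. For both genes every H2B K123R array was above every wild-type array, with differences of 0.46 and 0.41 that did not pass (limma adjusted p = 0.0647 and 0.0635).

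RPN3 and RPN6 depended more on single arrays. RPN3 read 665, 672 and 680.5 in wild type and 1146, 741 and 864 in H2B K123R, with wild-type arrays nearly equal and replicate 1 of H2B K123R far above the other 2 (difference 0.42, and 0.25 without replicate 1). RPN6, whose product clamps the lid to the core, read 1262, 1208 and 1267 in wild type and 1851, 1207 and 1661 in H2B K123R, so that replicate 2 of H2B K123R was level with the lowest wild-type array (difference 0.31, and 0.18 without replicate 1; limma adjusted p = 0.273 on all arrays). The remaining lid genes had the smallest differences of the regulatory particle. RPN11, the metalloprotease that cuts the ubiquitin chain from substrates, read 1259, 1221 and 1301 on the wild-type arrays and 1618, 1102 and 1373 on the H2B K123R arrays. Its H2B K123R arrays lay on both sides of the wild-type range, and the difference of 0.10 (95% interval -0.24 to 0.43) was -0.03 without replicate 1. RPN12, whose product joins the lid late in its assembly, read 672, 656 and 717 in wild type and 726, 746 and 707 in H2B K123R. Its difference of 0.09 had a 95% interval of -0.09 to 0.27, so a rise as large as that of RPN9 lies outside the interval. The difference of RPN12 was -0.02 after cyclic loess normalization. SEM1, a small lid subunit that is no member of the list, read 295, 367 and 388 in wild type and 518, 353 and 409 in H2B K123R, with overlapping groups (difference 0.27, and 0.12 without replicate 1).

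**Figure D2:**
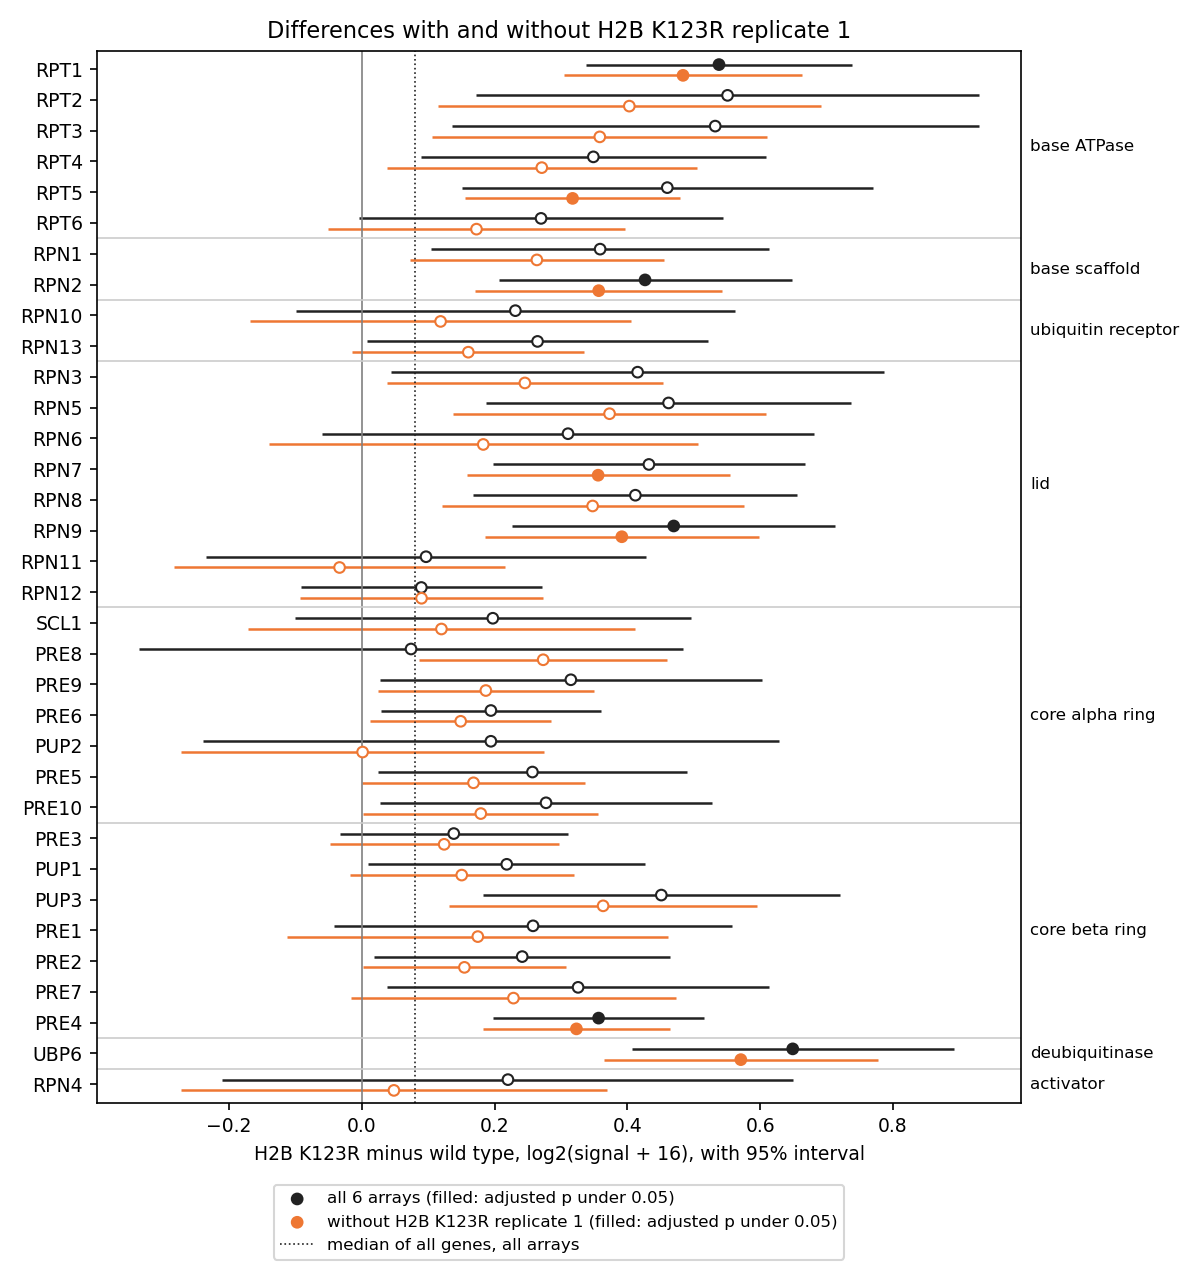
Difference between H2B K123R and wild type for each of the 34 proteasome genes, on the log2(signal + 16) scale (x axis), with 95% intervals from limma as horizontal lines; black is all 6 arrays, orange is without H2B K123R replicate 1, and filled points passed at an adjusted p under 0.05. The black points run from 0.07 to 0.65, all right of 0, and the dotted line marks the median of all genes at 0.08.

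Genes of the core particle had a smaller median difference than those of the regulatory particle. It was 0.25 over 14 core genes and 0.41 over 18 regulatory particle genes, and 0.17 and 0.29 without H2B K123R replicate 1. The 2 ubiquitin receptor genes of the regulatory particle had a median of 0.25, and 0.14 without replicate 1, no higher than the core. The contrast between core and regulatory particle is a description and was not tested. In the alpha rings, which gate access to the core, none of the 7 genes passed limma's test, with or without replicate 1, and 4 were higher at an unadjusted p under 0.05, where 20.7% of all genes were. PRE9, the gene of the subunit whose tail seals the gate, read 1054, 986 and 1002 in wild type and 1514, 1131 and 1181 in H2B K123R (difference 0.31, and 0.19 without replicate 1). PRE6, whose product can take the place of the PRE9 product in the ring, read 2624, 2532 and 2527 in wild type and 3124, 2833 and 2848 in H2B K123R, a difference of 0.19 with little spread in either group. PRE5 and PRE10 likewise had separate groups: PRE5 read 2242, 2185 and 2188 in wild type and 2985, 2345 and 2621 in H2B K123R, and PRE10 read 1601, 1476 and 1525 in wild type and 2136, 1659.8 and 1819.5 in H2B K123R. Their differences of 0.26 and 0.28 were 0.17 and 0.18 without replicate 1.

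The other alpha ring genes had overlapping groups. PRE8 was the one member for which replicate 1 of H2B K123R was the lowest of the 6 arrays. It read 2675, 2452 and 2314 on the wild-type arrays and 1975, 3032 and 2960.1 on the H2B K123R arrays, a difference of 0.07 on all arrays and 0.27 without replicate 1 (limma adjusted p = 0.0759); the difference was -0.03 without replicate 2 and -0.02 without replicate 3. PUP2 showed the opposite dependence. It read 939, 861 and 872 in wild type and 1339, 791 and 1003 in H2B K123R, so that its difference of 0.19 rested on replicate 1 and was 0.001 without that array (95% interval -0.27 to 0.27). SCL1 read 1751, 1567 and 1519.6 in wild type and 2059, 1549 and 1978 in H2B K123R, with replicate 2 of H2B K123R inside the wild-type range (difference 0.20, and 0.12 without replicate 1).

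Among the genes of the beta rings, PRE4, which encodes a subunit without its own proteolytic site, rose 1.28-fold from 1760.1 ± 40.3 to 2259 ± 92.3 (limma adjusted p = 0.0328). Its signals were 1796, 1717 and 1768 on the wild-type arrays and 2366, 2207 and 2205 on the H2B K123R arrays, tight in both groups, and the difference was 0.32 without replicate 1 (limma adjusted p = 0.0246). PUP3, another non-catalytic subunit gene, read 2699, 2243 and 2486 in wild type and 3821, 3018 and 3352 in H2B K123R and had the largest difference of the core particle, 0.45, which did not pass (limma adjusted p = 0.0641). PRE7 and PRE1, also non-catalytic, read 1433, 1283 and 1376 in wild type and 1962, 1761 and 1452 in H2B K123R and 1456, 1320.2 and 1512 in wild type and 1921, 1430.0 and 1819 in H2B K123R, respectively. The groups of PRE1 overlapped through replicate 2 of H2B K123R, and those of PRE7 were separated by a narrow margin.

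The 3 proteolytic subunit genes differed less than PRE4 and PUP3. PRE2, which carries the chymotrypsin-like activity, read 2811, 2645 and 2868 in wild type and 3705, 3042 and 3136 in H2B K123R, a difference of 0.24 (95% interval 0.02 to 0.46), and 0.15 without replicate 1. PUP1, with the trypsin-like activity, read 2224, 2012 and 2107 in wild type and 2704, 2280.1 and 2415 in H2B K123R, a difference of 0.22 (95% interval 0.01 to 0.43). PRE3, with the caspase-like activity, read 1832, 1651 and 1666 in wild type and 1927, 1892 and 1847 in H2B K123R on its brightest probe set. Its difference of 0.14 (95% interval -0.03 to 0.31) was the smallest of the beta rings, and its dimmer probe sets gave 0.24 and 0.11, with limma adjusted p of 0.195 and 0.666. All H2B K123R arrays were above all wild-type arrays for PRE2, PUP1 and PRE3, as for 25.5% of all genes, but none of the 3 passed limma's test. PRE2 and PUP1 had an unadjusted p under 0.05 by limma, where 20.7% of all genes were higher.

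UBP6 showed the largest difference of all members. This gene encodes the deubiquitinase that docks on the base and recycles ubiquitin from substrates before they are degraded. It rose 1.57-fold from 922 ± 11.4 to 1463 ± 178 (log2 difference 0.65, SE 0.10; limma adjusted p = 0.0209), with signals of 916, 936 and 916 on the wild-type arrays and 1624, 1271 and 1493 on the H2B K123R arrays. The wild-type arrays were nearly level with each other, and the lowest H2B K123R array was well above them. The difference was 0.57 without H2B K123R replicate 1 (limma adjusted p = 0.0164) and 0.75 without replicate 2 (limma adjusted p = 0.0193), while it did not pass without H2B K123R replicate 3 or without any 1 of the wild-type arrays (limma adjusted p from 0.0775 to 0.111).

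RPN4, the activator gene, did not pass. It read 395, 323 and 401 on the wild-type arrays and 556, 349.9 and 422 on the H2B K123R arrays, so that the groups overlapped and replicate 2 of H2B K123R was below 2 of the 3 wild-type arrays. Its difference was 0.22 (SE 0.18, 95% interval -0.21 to 0.65; limma adjusted p = 0.490) on all arrays and 0.05 (95% interval -0.27 to 0.37) without replicate 1. The members' median difference lies within the interval in either fit, while without replicate 1 the difference of RPT1, 0.48, lies above it. The array measures RPN4 transcript and not the protein, whose level is set largely by its breakdown. None of the 7 listed genes that act on RPN4 passed limma's test (2 had an unadjusted p under 0.05, both higher, where 20.7% of all genes were). Of the activators known to bind the RPN4 promoter, YAP1, the oxidative stress regulator, read 122.6, 116 and 127 in wild type and 213, 183 and 148 in H2B K123R, with all H2B K123R arrays higher (difference 0.50, limma adjusted p = 0.101). HSF1, the heat shock regulator, read 345, 334 and 348 in wild type and 392, 344 and 387 in H2B K123R, with overlapping groups. PDR1 read 579.5, 564 and 559.5 in wild type and 953, 565 and 641 in H2B K123R and PDR3 141, 144 and 144 in wild type and 197, 126 and 127 in H2B K123R; these drug resistance regulators stood out on replicate 1 of H2B K123R, and their differences of 0.30 and 0.03 were 0.08 and -0.16 without it.

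The Rpn4 protein is marked for breakdown by the ubiquitin ligase Ubr2 with its partner Mub1 and the conjugating enzyme Rad6, which is also the enzyme that places ubiquitin on H2B. UBR2 read 119, 150.0 and 132 in wild type and 79.2, 133 and 100.01 in H2B K123R and MUB1 241, 237 and 229.9 in wild type and 343, 202 and 232 in H2B K123R, with overlapping groups and differences of -0.34 and 0.10. Without H2B K123R replicate 1 these were -0.19 and -0.11, so that MUB1 changed sign. RAD6 read 403, 438 and 399 in wild type and 637, 502 and 494 in H2B K123R, with all H2B K123R arrays higher (difference 0.38, limma adjusted p = 0.116). UBP8 and UBP10, which remove ubiquitin from H2B, went from 134 ± 25.5 to 110.3 ± 10.4 and from 1845 ± 41.4 to 1540.1 ± 144. Neither difference passed (limma adjusted p = 0.407 and 0.125). The groups of UBP8 overlapped. UBP10 read 1885, 1802 and 1848 in wild type and 1390, 1554 and 1677 in H2B K123R, with all H2B K123R arrays lower. Its difference was -0.26 (limma unadjusted p = 0.0203), and -0.19 without H2B K123R replicate 1.

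The members moved together from array to array. Replicate 1 of H2B K123R was the highest of the 6 arrays for 32 of 34 members, against 49.8% of all genes, PRE8 and RPN12 being the exceptions. Replicate 1 was above replicate 3 and replicate 3 above replicate 2 for 26 of 34, against 41.6% of all genes. Relative to the wild-type mean, the median shift of the members was 0.53, 0.16 and 0.30 on H2B K123R replicates 1, 2 and 3, where that of all genes was 0.21, 0.01 and 0.05. The base ATPases shifted by 0.70, 0.25 and 0.41, the lid by 0.58, 0.19 and 0.41, the alpha rings by 0.43, 0.11 and 0.24 and the beta rings by 0.42, 0.14 and 0.19. On each of the 3 H2B K123R arrays the medians of the base ATPases and of the lid were thus above those of both rings of the core. The 2 base scaffold genes, at 0.56, 0.26 and 0.36, were too. The 2 ubiquitin receptor genes, also of the regulatory particle, stood at 0.46, 0.22 and 0.06, below both rings on replicate 3. On the wild-type arrays the members' median was 0.06, -0.05 and 0.01. With H2B K123R replicate 1 included, the spread between replicates was wider in the mutant. The coefficient of variation had a median of 4.89% in wild type and 13.0% in H2B K123R over the members, and 7.49% and 14.9% over all genes. It was not computed without that array.

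**Figure D3:**
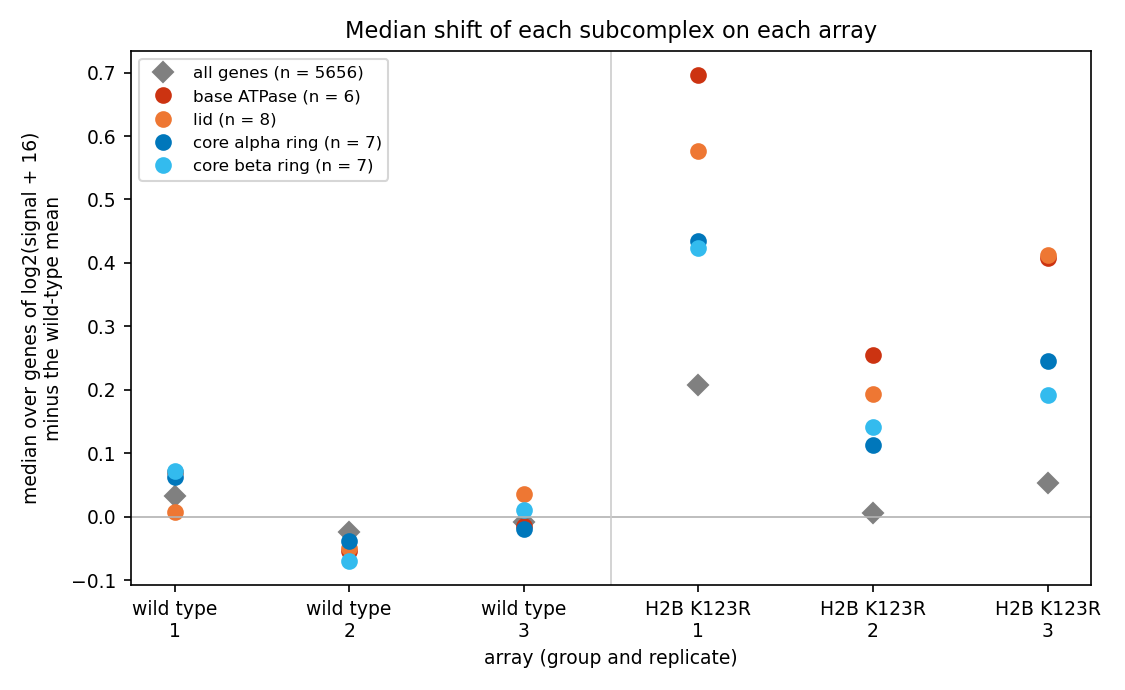
Median over the genes of the base ATPases, the lid, the alpha rings and the beta rings, and over all genes, of log2(signal + 16) minus the wild-type mean (y axis) on each of the 6 arrays (x axis). The base scaffold and ubiquitin receptor genes are not drawn. On H2B K123R replicates 1, 2 and 3 the base ATPases stood at 0.70, 0.25 and 0.41, and all genes (grey diamonds) at 0.21, 0.01 and 0.05.

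The subcomplexes also differ in gene length, which the choice of members did not use. Over the 34 members, the difference had a rank correlation (Spearman's rho) of 0.54 with the gene's length in the R64 gene table, and 0.41 without H2B K123R replicate 1. The points share the 6 arrays, so no p is given. Among the 18 regulatory particle genes rho was 0.53, among the 14 core particle genes, which have a median length of 764.5 bases, it was -0.07 (-0.20 without replicate 1), and over all 5656 genes 0.03. The difference had a rho of -0.33 with the mean log2 signal over the members and -0.05 over all genes, which were -0.18 and -0.03 without replicate 1, and the shift on H2B K123R replicate 1 alone had a rho of -0.51 with it over the members. Whether length or signal level plays a part in the contrast between core and regulatory particle was not tested. No 2 members are neighbours in the gene order, and they lie on 13 chromosomes.

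**Figure D4:**
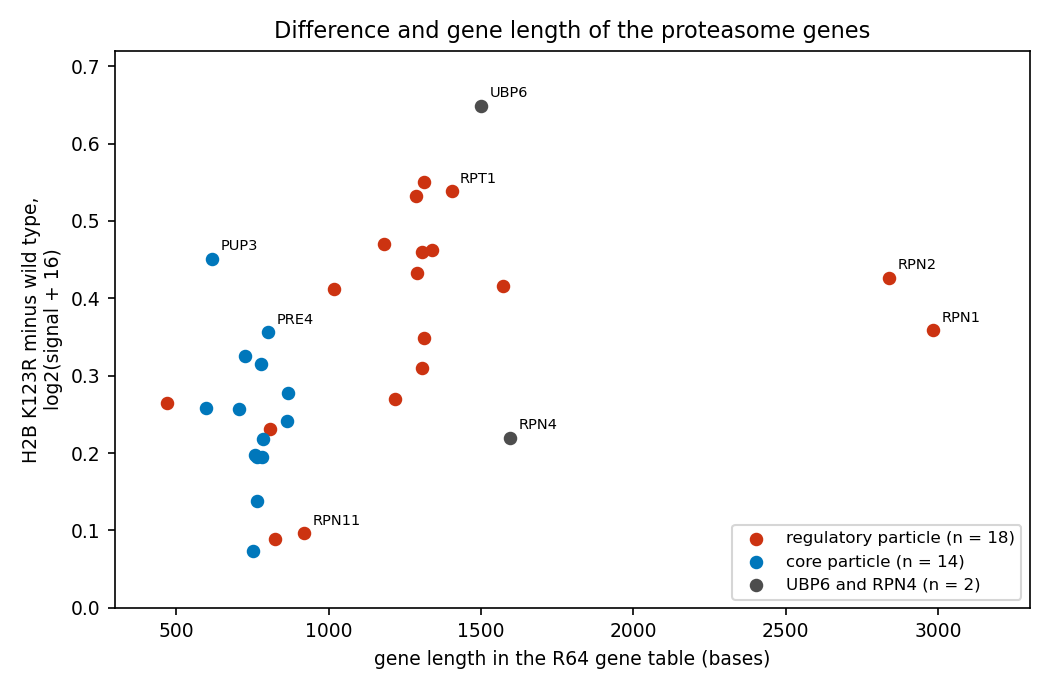
Difference between H2B K123R and wild type on the log2(signal + 16) scale (y axis) against gene length in bases (x axis) for the 34 proteasome genes, coloured by particle. Core particle genes are all short, the long scaffold genes RPN1 and RPN2 have differences of 0.36 and 0.43, and UBP6 is highest at 0.65.

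Genes that act around the proteasome were followed in 5 lists and SEM1, 67 genes in all, of which 65 were measured. Of these, 7 rose and 2 fell, where 6.06% of all genes rose and 2.92% fell. Their median difference was 0.18, and 0.09 without H2B K123R replicate 1. Of the assembly chaperones and core particle partners 1 of 13 rose and 1 fell, too few to set against those shares, and the list's median was 0.18, and 0.08 without replicate 1. NAS6, a chaperone that binds Rpt3 while the base is assembled, rose 1.44-fold from 763 ± 33.6 to 1109.8 ± 153 (limma adjusted p = 0.0442), with signals of 773, 725 and 790.3 on the wild-type arrays and 1274, 1083 and 972 on the H2B K123R arrays. RPN14, a chaperone that binds Rpt6 in the same assembly module, fell 1.45-fold from 142 ± 2.96 to 92.5 ± 1.92 (limma adjusted p = 0.0373), with signals of 144, 138 and 143 on the wild-type arrays and 91.7, 91.1 and 94.7 on the H2B K123R arrays. Both groups of RPN14 were tight and far apart, and replicate 1 of H2B K123R read between the other 2 of its group. RPN14 passed in 8 of 14 alternatives, and only 1 of those 8 left out an array. UMP1, which matures the beta rings, read 199, 224 and 214 in wild type and 272, 291 and 282 in H2B K123R and passed without replicate 1 but not on all arrays (difference 0.41, limma adjusted p = 0.0445; all arrays 0.0679). BLM10, an alternative activator of the core, read 1367, 1216 and 1231 in wild type and 213, 1104 and 1288 in H2B K123R, and ECM29, which tethers core and regulatory particle, read 499, 608 and 543 in wild type and 109, 789.9 and 652 in H2B K123R. For both of them replicate 1 of H2B K123R was far below every other array, the reverse of its place among the members, and without it the differences of -0.89 and -0.47 became -0.09 and 0.38.

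Of the delivery and unfolding factors 4 of 12 rose and 0 fell, where 6.06% of all genes rose, with a median of 0.26, and 0.19 without replicate 1. Limma gave 5 higher and 1 lower at an unadjusted p under 0.05, where 20.7% of all genes were higher and 10.1% lower. TMC1, a zinc finger gene that Rpn4 is known to activate under metal stress, rose 1.56-fold from 307 ± 17.8 to 489 ± 50.3 (limma adjusted p = 0.0243). SHP1, a cofactor of Cdc48, rose 1.42-fold from 2416 ± 127 to 3453 ± 438 (limma adjusted p = 0.0422), and DOA1, another Cdc48 partner that keeps up the pool of free ubiquitin, rose 1.36-fold from 599 ± 47.6 to 818 ± 51.6 (limma adjusted p = 0.0441). Neither SHP1 nor DOA1 passed after quantile normalization (limma adjusted p = 0.0637 and 0.0696), DOA1 did not pass after cyclic loess (0.0955), and DOA1 passed in 6 of 15 alternatives in all. CDC48, the ATPase that extracts ubiquitinated proteins and hands them to the proteasome, read 2993, 3129 and 3085 in wild type and 3870.5, 3681 and 3834 in H2B K123R, a rise of 1.24-fold with no overlap between the groups (limma adjusted p = 0.0385). Without the variance trend NAS6, CDC48, SHP1 and DOA1 did not pass (limma adjusted p from 0.0571 to 0.0772).

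Of 15 measured genes of ubiquitin and its conjugation, 2 rose and 0 fell, where 6.06% of all genes rose and 2.92% fell (median 0.27, and 0.22 without replicate 1). At an unadjusted p under 0.05 limma gave 7 higher and 2 lower, where 20.7% of all genes were higher and 10.1% lower. UBC5, a conjugating enzyme of the stress response that serves breakdown of short-lived and abnormal proteins, read 145, 149.9 and 177 on the wild-type arrays and 439, 335 and 343 on the H2B K123R arrays. It rose 2.23-fold (limma adjusted p = 0.0133), and no other gene of these lists had a difference as large. The brighter conjugating enzyme gene UBC4 went from 4066 ± 132 to 3864 ± 661 and did not pass (limma adjusted p = 0.714). The difference of UBC4 was -0.09, and -0.20 without H2B K123R replicate 1. UBI4, the polyubiquitin gene, read 468, 488 and 488 in wild type and 933, 784 and 817 in H2B K123R (limma adjusted p = 0.0117). RPS31, which supplies ubiquitin fused to a ribosomal protein during growth, read 11130.4, 10951 and 11332 in wild type and 8654, 10998 and 10218 in H2B K123R and did not pass. Its difference was -0.17, and -0.07 without H2B K123R replicate 1. RPL40A and RPL40B, also of this list, were not among the genes measured. The 17 other deubiquitinase genes had a median of 0.14, and 0.09 without replicate 1. None of them rose by limma's test. With an unadjusted p under 0.05, 3 were higher and 2 lower, where 20.7% of all genes were higher and 10.1% lower. UBP1 fell 1.45-fold from 906 ± 47.1 to 621 ± 68.9 (limma adjusted p = 0.0330). UBP1 passed in 9 of 15 alternatives, and only 1 of those 9 left out an array. UBP6 was thus called higher and UBP1 lower; OTU2 read 364, 341 and 341 in wild type and 700.2, 439 and 482 in H2B K123R and passed without replicate 1 of H2B K123R but not on all arrays (difference 0.58, and 0.38 without it, limma adjusted p = 0.0403). Over the 5 lists and SEM1 the genes called numbered 13 without that replicate, 4 without replicate 2, and 0 without replicate 3 or without wild-type replicate 1, 2 or 3 (at an unadjusted p under 0.05 limma gave 19 to 24 of the 65 genes in those 4 fits, where 20.0% to 26.6% of all genes passed).

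**Figure D5:**
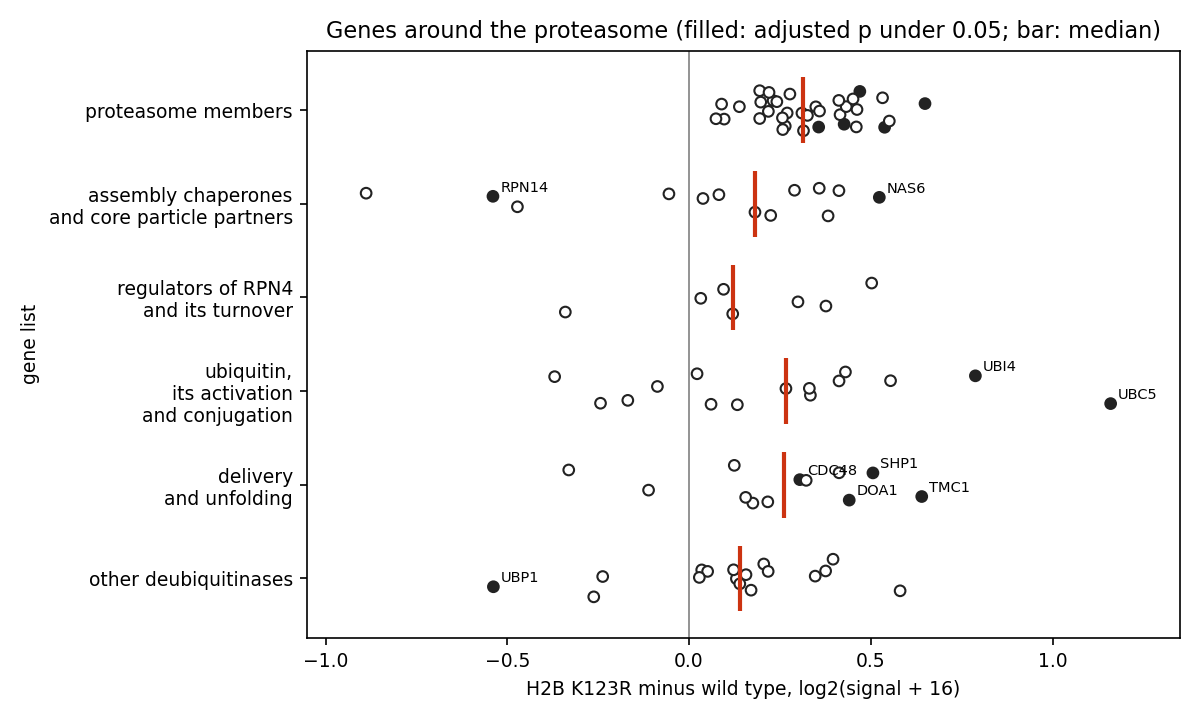
Difference between H2B K123R and wild type on the log2(signal + 16) scale (x axis) for the 34 proteasome genes and for 5 lists of genes around the proteasome (y axis), 1 point a gene, filled where the adjusted p was under 0.05, with the median of each list as a red bar. The median of the members is 0.31, and those of the other lists lie between 0.12 and 0.27.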

How the data were processed

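Total RNA of 3 cultures of each strain was labelled with biotin and hybridised to 1 array each, per the labels' protocols; no label says whether the cultures had separate starters, and the p-values cover only the spread among them. The deposited table holds linear intensity values, 1 per probe set and array, which the authors had scaled to a common level (trimmed array means of 500.4 to 500.5). How they summarized the probes and the genome build behind the array were not given in the sources used here. Coordinates are left out. Of 9335 probe sets 60 controls were set aside. Genes were named from the platform annotation through gene identifiers in the gene table of the R64 assembly: 6504 probe sets have 1 gene, 328 several and 2443 none, and probe sets with several genes were left unnamed. A gene is represented by its probe set with the highest mean over the 6 arrays, except where other probe sets are named.

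Differences were tested on log2(signal + 16) with limma 3.58.1 in R 4.3.3 (variance trend, two-sided, Benjamini-Hochberg over 9275 probe sets). Array medians differed by at most 0.0924 on this scale, and no further normalization was applied. A fold is on this scale and understates the change of dim genes. An exact permutation test of 3 against 3 arrays cannot go below p = 0.1. The procedure was tested on simulated data, with independent noise for each value and the same spread in both groups. No outlying array was simulated, so that test does not bear on how the calls here depend on single arrays. The members and the gene lists were chosen with earlier results of these data known, and no test was made over a list. All members are named, and of the other lists the genes that passed and all regulators of RPN4. SEM1, UMP1, BLM10, ECM29, UBC4, RPS31, UBP8, UBP10 and OTU2 were named after their values were seen. A search of promoters for the Rpn4 binding motif was planned and not run, since no promoter sequence was used here. Replicate numbers are shared between the groups. The labels name no batch, so the main fit did not take the numbers as pairs, and a block on them was run as an alternative. Deviations from the group means correlated at 0.32, 0.38 and 0.05 for numbers 1, 2 and 3, and from -0.39 to 0.02 for unlike numbers. Alternatives were other pseudocounts (1 and 64), normalizations, a filter on dim probe sets, a replicate block, no variance trend, array weights, the mean of a gene's probe sets, and leaving out each array.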

Additional observations from a re-analysis of the deposited data

How the results depend on the processing

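The median difference of the 34 members kept its sign under all 15 alternatives, and RPN4 passed under none of them. That median ranged from 0.21 (without H2B K123R replicate 1) to 0.385 when 1 array was left out, against 0.31 on all arrays. The 5 members called higher became 8 after quantile normalization, 9 after cyclic loess, 9 with only probe sets above the median signal, 3 with a replicate block, 2 without the variance trend and 27 with array weights, and 0 to 7 when 1 array was left out. The 9 genes called around the proteasome became 3 with the block, 5 without the variance trend and 26 with array weights, and 0 to 13 when 1 array was left out. Calls over all 5656 genes, in either direction, numbered 508 in the main fit, 617 after quantile normalization and 761 after cyclic loess. They numbered 248 with the block, 497 without the variance trend and 2078 with array weights. With only probe sets above the median signal, 548 of 3793 genes were called. Of all probe sets 620 passed, against 307 with the replicate block, 2885 with array weights and 22 to 1023 when 1 array was left out. Each replicate's deviations correlated best with those of its own number in the other group, a hint from the data and not the design. The differences of 4 members changed sign: RPN12 was -0.0206 after cyclic loess and RPN10, 0.23 on equal weights, was -0.0120 with array weights, and with 1 array left out RPN11 ranged from -0.0336 (without H2B K123R replicate 1) to 0.240 and PRE8 from -0.0341 (without replicate 2) to 0.273. The cause of these changes was not tested. The median over all genes was 0.08, and 0.05 after quantile normalization and 0.01 after cyclic loess. With 3 arrays a group and differences mostly under 1.5-fold, the number of arrays limits what can be called.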
